A study of Danio rerio with 68 samples.

Results

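The comparison described here is that of liver from 36-month-old with liver from 12-month-old male zebrafish that received no rotenone. It used 10 of the 68 libraries of a study of ageing and of the mitochondrial complex I inhibitor rotenone in brain, liver and skin. All 10 fish were controls, kept in tanks with the solvent DMSO and no rotenone, and they were sampled after 3 or after 8 weeks. The 12-month group held 2 fish at 3 weeks and 3 fish at 8 weeks, and the 36-month group also held 2 and 3. The libraries of the comparison were taken by their labels alone (tissue, age, treatment and time). The comparison itself was chosen with earlier results of these data known. Because 36-month and 12-month fish hatched at different times, age cannot be told apart from stock, hatch year and rearing. Values are given per library in one fixed order: 12-month fish at 3 weeks, 12-month fish at 8 weeks, 36-month fish at 3 weeks, then 36-month fish at 8 weeks. Levels are CPM, counts scaled to a common library size after TMM normalization, and fold changes are log2 differences, 36 minus 12 months, with their standard error.

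The liver makes most plasma proteins, clotting factors and complement, stores and releases glucose and fat, breaks down amino acids, and secretes bile. Its hepatocytes follow daily rhythms set by clock transcription factors, by feeding and by glucocorticoids, and they answer growth hormone by releasing insulin-like growth factors. In male fish the egg yolk precursors, the vitellogenins, are normally low, since their hepatic genes are driven by estrogen. Type I interferon induces a broad set of antiviral genes in hepatocytes as in most other cells.

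The libraries held 28710443 to 47257891 counts and 21977 to 24135 genes with a count. The 28 hepatocyte markers, all above 0 in every library, took 21.1% to 31.5% of the counts in the 12-month livers and 28.4% to 30.6% in 4 of the 36-month livers. The exception was 36-month 8-week replicate 3, where they took 12.8%. In that library the 37 intestine markers took 4.80% of the counts, against 0.316% to 0.625% in the 12-month and 0.185% to 0.636% in the other 36-month livers. The chitinase gene chia.3, an intestine marker, stood at 10424 CPM there and between 0 and 10.6 CPM in the other 9 libraries. This library also lay apart on the first principal component (36.3% of the variance), at -183 against -12.1 to 58.3 for the rest. Results are given with all 10 livers, and for many gene lists also without that library. A count or median given with all 10 livers only may also have moved without it. Transcripts of the exocrine pancreas were also unequal between the ages: the 27 markers took 0.0378%, 0.143%, 0.222%, 0.113% and 0.0283% of counts in the 12-month livers and 2.19%, 1.83%, 0.223%, 0.211% and 1.17% in the 36-month livers. Between 1 and 3 of the 27 were at 0 in each library. Trypsin (try) measured 17.5, 154, 369, 128 and 27 CPM at 12 months and 2766, 3113, 348, 328 and 1133 CPM at 36 months, so the 3-week livers lay farthest apart; try was picked after its values were seen. In whole-tissue RNA, fewer cells of a type and less RNA per cell cannot be told apart, and the part that such cells played in any result below was not tested unless a value is given.

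**Figure D1:**
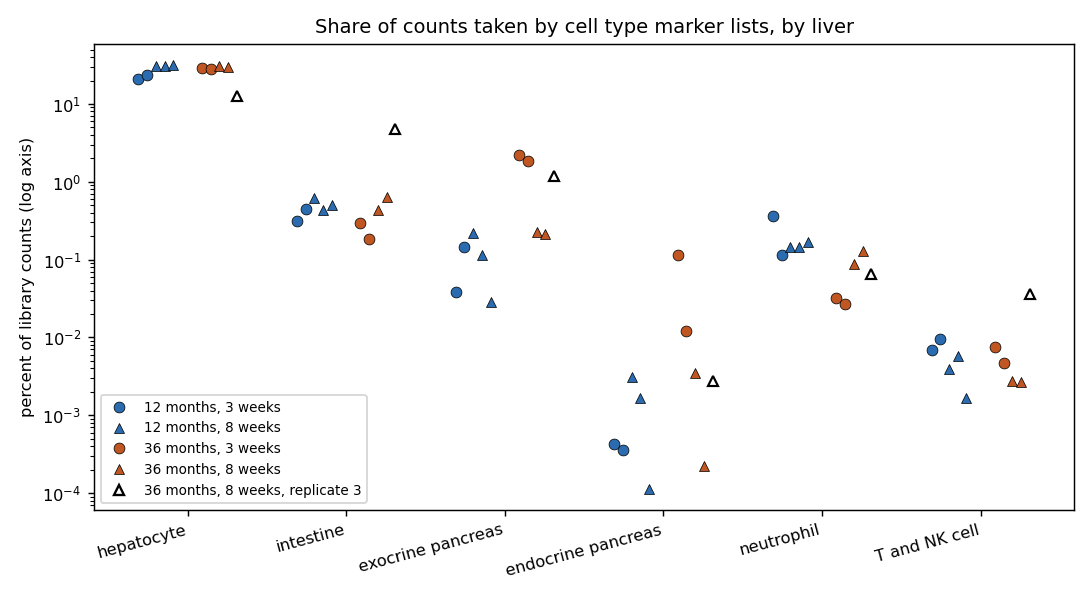
Percent of each library's counts (log axis) taken by 6 cell type marker lists; each point is 1 liver, blue for 12 and orange for 36 months, circles for 3 and triangles for 8 weeks. The open triangle is 36-month 8-week replicate 3, at 12.8% for hepatocyte and 4.80% for intestine markers, and exocrine pancreas markers reach 2.19% in the 36-month livers against at most 0.222% in the 12-month livers.

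Across all genes, the age difference in liver passed the test for a handful of genes, every one of them lower in old fish. Of 32677 genes, 27679 had a count in these livers and 19113 passed the filter on low counts. The latter were tested with edgeR's quasi-likelihood test, with sampling time as a covariate. At an adjusted p under 0.05, 8 genes (0.0419% of those tested) were called, 0 higher and 8 lower at 36 months. At an unadjusted p under 0.05 edgeR had 1291 higher (6.75%) and 1170 lower (6.12%). Other methods called many more than edgeR's 8 at an adjusted p under 0.05. DESeq2 called 370 higher and 436 lower, and limma voom with sample quality weights 299 and 456. All 8 genes were also called by DESeq2 and by voom, and 6 of the 8 in a fit of all 20 livers. These fits included the same 10 livers and called many more genes, so this is no independent check. Without 36-month 8-week replicate 3, 138 of 18608 genes (0.742%) were called, 52 higher (0.279%) and 86 lower (0.462%), and they included all 8. At an unadjusted p under 0.05, 8.63% of genes were then higher and 9.7% lower. Counts of list members below are to be read beside these shares, or beside 6.75% and 6.12% with all livers. Leaving out 6 of the other libraries singly brought the count to 0, as given for each in the closing section. The median fold change over all genes was 0.08 with the 10 livers and -0.01 without that library. Principal component 2 (19.5% of the variance) separated the sampling times, not the ages. It placed the 3-week livers between 8.08 and 89.2 and the 8-week livers between -55.8 and -13.3. Principal component 3 (14.9% of the variance) placed the 12-month livers between -49.8 and -22.2 and the 36-month livers between 20.6 and 58.0.

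The 8 genes that fell were lower in each 36-month liver than in every 12-month liver, as were 1.81% of all genes. These genes had been called on the same livers, which favours such a separation. The most abundant was snrk1 (current symbol snrkb), an SNF1-related kinase of the AMPK family. It measured 112, 83.4, 201, 174 and 107 CPM at 12 months and 9.44, 7.67, 40.3, 32.8 and 16.1 CPM at 36 months, a fold change of -2.86 ± 0.36 (adjusted p = 0.0410). The fall was present at both times, at -3.51 at 3 weeks and -2.43 at 8 weeks. The test of a difference between times did not detect one (1.08 ± 0.62, adjusted p = 0.800). The gene rims1a, whose mammalian counterpart scaffolds vesicle release sites, stood at 10.4, 16.3, 8.88, 8.85 and 9.23 CPM in the young fish and at 1.83, 2.31, 2.74, 1.75 and 3.01 CPM in the old (-2.18 ± 0.26, adjusted p = 0.0340). Its lowest young value was thus well above its highest old one. For guca1e, named as a guanylate cyclase activator, a calcium sensor family known from photoreceptors, the values were 3.78, 3.34, 7.56, 7.61 and 5.28 CPM against 1.22, 0.570, 1.2, 1.3 and 1.08 CPM (-2.30 ± 0.27, adjusted p = 0.0340).

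The other 5 called genes were at low levels in the old livers. The gene msrab, by its name a methionine sulfoxide reductase A, the enzyme that repairs oxidised methionine, measured 4.33, 2.79, 5.34, 2.52 and 2.80 CPM at 12 months and 0.122, 0.0951, 0.266, 0.149 and 0.481 CPM at 36 months (-4.06 ± 0.48, adjusted p = 0.0340). The raw counts of CU459152.1, a gene without an informative symbol, were 267, 78, 958, 297 and 409 in the young fish and 0, 1, 3, 2 and 13 in the old (-6.85 ± 0.70, adjusted p = 0.0308). Similarly, zgc:158417 had 58, 324, 148, 158 and 96 counts in the young fish. A single count in 1 of the 5 old livers remained, a ratio of 679 per sequenced count with a 95% interval of 122 to 26900 that covers counting error only. The hormone gene pth2 (parathyroid hormone 2) was rare throughout, with 17, 14, 16, 17 and 11 counts against 1 count in each of the 5 old livers, a ratio of 13 (5.33 to 41.2, counting error only). Finally, si:dkey-20j10.2 fell by 2.72 ± 0.34 on the log2 scale, from a range of 1.13 to 2.77 CPM to one of 0.153 to 0.553 CPM. For CU459152.1, msrab and si:dkey-20j10.2 the highest of the old values came from 36-month 8-week replicate 3.

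**Figure D2:**
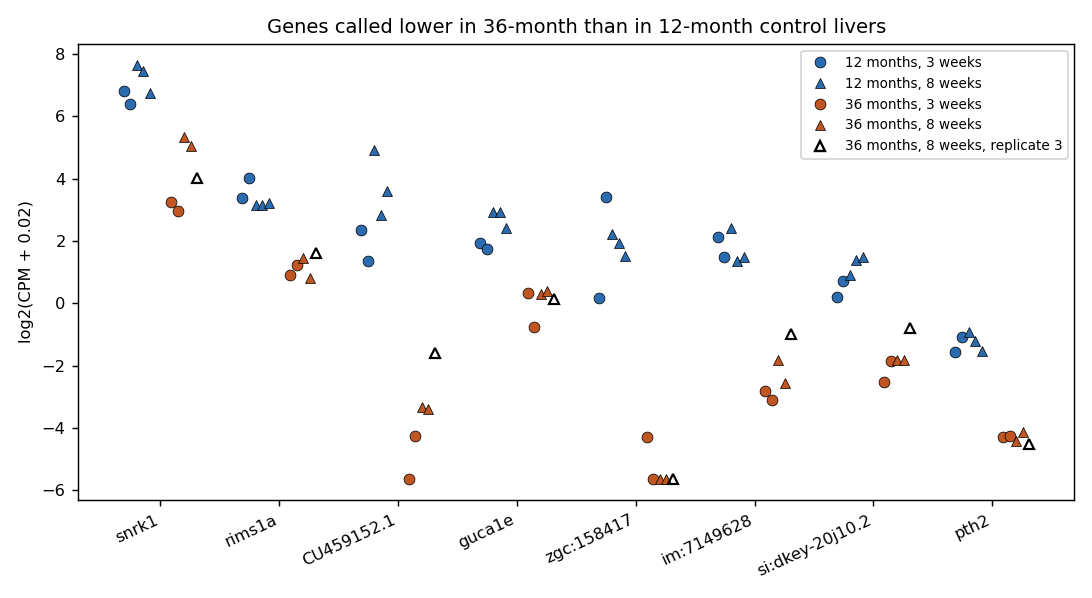
Level of the 8 called genes on the log2(CPM + 0.02) scale in each of the 10 livers, with colours and symbols by age and time. In each gene every orange point lies below every blue one, which held for 1.81% of all genes. For snrk1 the young livers span 83.4 to 201 CPM and the old ones 7.67 to 40.3 CPM.

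Beyond these 8, the genes with the smallest p included several with known work in hepatocytes, most of them lower in old fish. Their adjusted p lay just above the threshold with all livers and below it without 36-month 8-week replicate 3. The transporter gene mfsd2ab, whose mammalian counterpart carries lysophospholipids with omega-3 fatty acids, measured 417, 773, 785, 610 and 970 CPM at 12 months and 37.9, 74.7, 68.1, 203 and 45.1 CPM at 36 months (-3.10 ± 0.47, adjusted p = 0.0714, and 0.0297 without the library). The threonine dehydrogenase gene tdh, which starts one route of threonine breakdown, stood at 746, 533, 171, 362 and 469 CPM against 70.4, 72.1, 50.8, 121 and 58.9 CPM (-2.54 ± 0.40, adjusted p = 0.0725, and 0.0427 without it). Neither gene's age groups overlapped. The same held for ncoa4, the receptor that delivers ferritin to autophagy, with means of 366 and 132 CPM (-1.48 ± 0.22, adjusted p = 0.0636, and 0.0275 without), and for abcc4, an exporter of bile acids and cyclic nucleotides, with means of 152 and 50.1 CPM (-1.61 ± 0.22, adjusted p = 0.0620, and 0.0228 without). The salt-inducible kinase gene sik2a (-2.14 ± 0.31), the signalling adaptor CCDC88C (-1.1 ± 0.16), the GATA cofactor zfpm1 (-1.23 ± 0.20), the flagellin receptor tlr5b (the entry of that symbol with the smaller p, -1.23 ± 0.20), the proteoglycan gene spock2 (-3.54 ± 0.55) and the helicase gene ddx43 (-4.05 ± 0.64) also had every old liver below every young one. The early-response factor csrnp1b (-1.72 ± 0.25) and the calcium channel gene CACNA1H (1 of 2) (-2.1 ± 0.33) did not. Over all genes, 1.81% were lower in every old liver. The genes of this group were picked by a small p on the same livers, which favours such a separation.

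In that group 4 genes were higher in old fish. The small heat shock protein gene hspb1 stood at 1.57, 1.98, 1.3, 2.4 and 1.33 CPM in young and at 4.92, 5.55, 5.42, 4.69 and 5.41 CPM in old livers (1.6 ± 0.23, adjusted p = 0.0636, and 0.0338 without the library). The old values were close together and all above the young ones. Over all genes, 1.28% were higher in every old liver. MREG, a gene named after melanoregulin, had 5, 0, 2, 1 and 0 counts at 12 months and 38, 65, 118, 98 and 36 counts at 36 months (adjusted p = 0.0636, and 0.0185 without). Values for KAZN (3 of 3) (1.53 ± 0.25) and RNH1 (6 of 24) (2.60 ± 0.39) were higher in every old liver too, but the reads of numbered copies such as these could have been split between near-identical genes.

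Interferon-responsive genes leaned to higher values, but not in every old fish and with no single gene past the test. Of 73 such genes in the data, 68 were tested and 0 were called. A fold change above 0 was found for 59 (56.4% of all genes had one), and 33 were higher and 2 lower at an unadjusted p under 0.05. The list's median was 0.96, and 0.57 without 36-month 8-week replicate 3 (29 higher and 4 lower of 65). The ubiquitin-like isg15, which is conjugated to proteins in infected cells, measured 10.1, 16.5, 21.4, 18.6 and 22.7 CPM at 12 months and 75.4, 7.6, 93.7, 172 and 131 CPM at 36 months (2.26 ± 0.55, adjusted p = 0.156). All old livers but one were high, and 36-month 3-week replicate 2 was below every young liver. The same library was low for zgc:123282 (ifit8), an antiviral IFIT gene, with 1.89, 5.97, 12, 4.08 and 8.32 CPM against 87.2, 2.03, 140, 206 and 94.9 CPM (3.90 ± 0.86, adjusted p = 0.141). It was low again for the antiviral enzyme gene rsad2, with 4.16, 8.62, 33.6, 10.7 and 21.5 CPM against 41.4, 4.02, 82.0, 166 and 150 CPM (2.29 ± 0.61, adjusted p = 0.190). By library, the median of the 68 genes relative to the 12-month mean was 0.66, -0.67, 0.54, 0.83 and 2.18 on the log2 scale in the old livers. A minority separated the ages in every fish: the RNA-editing gene adar (22.0, 18.6, 20.6, 17.6 and 23.0 against 27.5, 31.6, 31.8, 30.7 and 36.3 CPM), the transcription factor IRF3 and parp12b were higher in every old liver, 3 of the 68, against 1.28% of all genes. Another 1 of the 68 was lower in every old liver, against 1.81% of all genes. The genes isg15, rsad2, adar, IRF3 and parp12b were picked for the text after their values were seen.

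**Figure D3:**
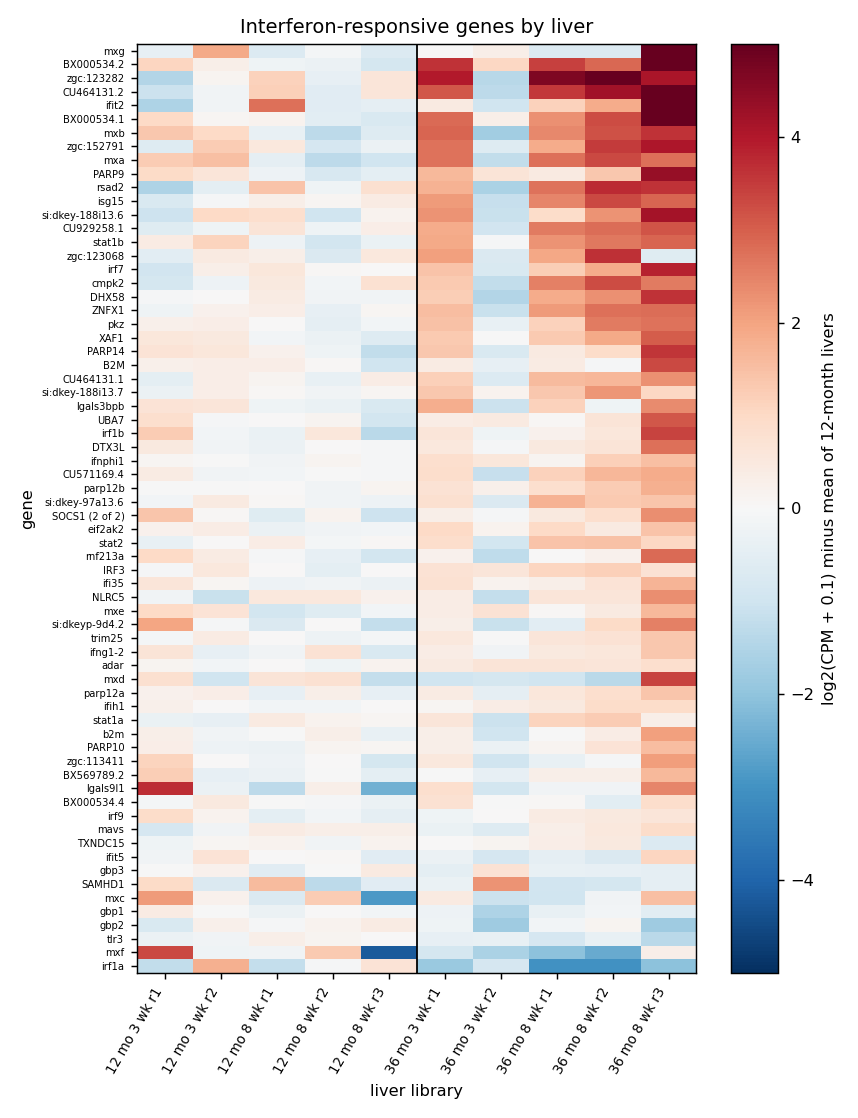
Interferon-responsive genes (rows, ordered by fold change) in the 10 livers (columns), coloured by log2(CPM + 0.1) minus the mean of the 12-month livers; colours saturate at the ends of the scale. Red fills 4 of the 36-month columns and is strongest in 8-week replicate 3 (list median 2.18), while 3-week replicate 2 is mostly blue (-0.67).

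The bloodthirsty and finTRIM genes, fish families of TRIM proteins many of which respond to viral infection, had a similar profile. Of 78 tested, 0 were called with all livers and 25 were higher and 1 lower at an unadjusted p under 0.05, with a median of 1.1 (0.61, and 21 higher and 6 lower of 74, without the library). Their medians in the old livers, 0.53, -0.58, 0.68, 0.82 and 2.02, were again lowest in 36-month 3-week replicate 2. The member with the smallest p, btr26, stood at 3.89, 4.64, 4.90, 4.05 and 4.75 CPM in young and 15.6, 5.93, 15.5, 17.8 and 22.4 CPM in old fish (1.75 ± 0.29, adjusted p = 0.0804, and 0.0431 without the library). All its old values exceeded the young ones, the lowest by little. For btr18 they were 0.0756, 0.130, 0.221, 0.144 and 0.885 CPM against 2.57, 3.07, 2.44, 2.49 and 8.35 CPM (3.89 ± 0.65, adjusted p = 0.0804), which included 3-week replicate 2. Antigen presentation genes had a median of 0.46 with all livers and of 0.05 without 36-month 8-week replicate 3, so that value rests on 1 library. Among 78 chemokine and cytokine genes the median was 0.03, with 4 higher and 3 lower at an unadjusted p under 0.05 (-0.31, and 2 and 15 of 74, without that library). They included the receptor gene si:dkey-269d20.3 (cxcr3.3) lower in all old livers (-1.34 ± 0.20, adjusted p = 0.0636), and the chemokine cxcl-c1c (cxcl18b), higher in all (1.14 ± 0.21, adjusted p = 0.0882).

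Glucocorticoid-responsive genes leaned to lower values in old fish, with lower medians in the fish sampled at 3 weeks. Of 36 tested, 0 were called, 13 were lower and 2 higher at an unadjusted p under 0.05, and the median was -0.66 (-0.84 at 3 weeks, -0.59 at 8 weeks, and -0.83 over both times without 36-month 8-week replicate 3). Over all genes 6.12% were lower and 6.75% higher at that threshold. The kinase gene sgk1, a classical target of the glucocorticoid and mineralocorticoid receptors, measured 659, 587, 79.2, 171 and 181 CPM in the young and 84.6, 59.4, 56.7, 61.9 and 35.4 CPM in the old fish (-2.13 ± 0.41, adjusted p = 0.0953). Its young values were themselves several-fold higher at 3 than at 8 weeks. The receptor co-chaperone gene fkbp5 stood at 905, 771, 970, 997 and 786 CPM against 34.6, 182, 604, 613 and 313 CPM, with every old value below every young one (-1.67 ± 0.56, adjusted p = 0.282). Here the 3-week old fish were lowest, with a fold change of -2.95 at 3 weeks and -0.85 at 8 weeks. The phosphatidate phosphatase gene lpin1, needed for triglyceride synthesis and induced by fasting signals in mammals, had 162, 126, 139, 166 and 312 CPM against 13.9, 12.7, 69.2, 114 and 14.0 CPM (-2.35 ± 0.60, adjusted p = 0.177). For pck1, the gluconeogenic enzyme phosphoenolpyruvate carboxykinase, the values were 4238, 3401, 2209, 934 and 2311 CPM against 43.7, 83.7, 1017, 865 and 1594 CPM, a difference of -5.91 at 3 weeks and -0.65 at 8 weeks. The genes fkbp5, klf9, per1a, nr1d1 and arntl1b are named here and below after their values were seen.

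The circadian clock genes were split. Of 46 tested, 4 were higher and 12 lower at an unadjusted p under 0.05 (6.75% and 6.12% of all genes were), 0 were called, and 5 were lower in every old liver (1.81% of all genes were). The median of the list was -0.11 (-0.23 without 36-month 8-week replicate 3). The repressor nfil3-6, which acts in the output of the clock, had 221, 208, 174, 284 and 260 CPM in the young and 55.3, 40.6, 93.3, 123 and 135 CPM in the old fish (-1.48 ± 0.29, adjusted p = 0.102, and 0.0431 without 36-month 8-week replicate 3). It did not overlap between ages. The nocturnin gene ccrn4la, a rhythmic enzyme, stood at 22.4, 37.9, 59.4, 79.5 and 141 CPM against 12, 16.7, 19.9, 28.1 and 10.22 CPM (-1.78 ± 0.40, adjusted p = 0.144). The Rev-erb repressors nr1d1 (-1.58 ± 0.37) and nr1d2a (-1.48 ± 0.43) and the period gene per1a (-1.17 ± 0.37) were lower, whereas arntl1b (bmal1), which the Rev-erb proteins repress in mammals, was higher (0.74 ± 0.19). None of these passed the adjusted threshold. A link between their values was not tested, and values of other bmal and period copies are not given. The time of day at which the fish were sampled is not given in the sources used here, and its part in these values was not tested.

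**Figure D4:**
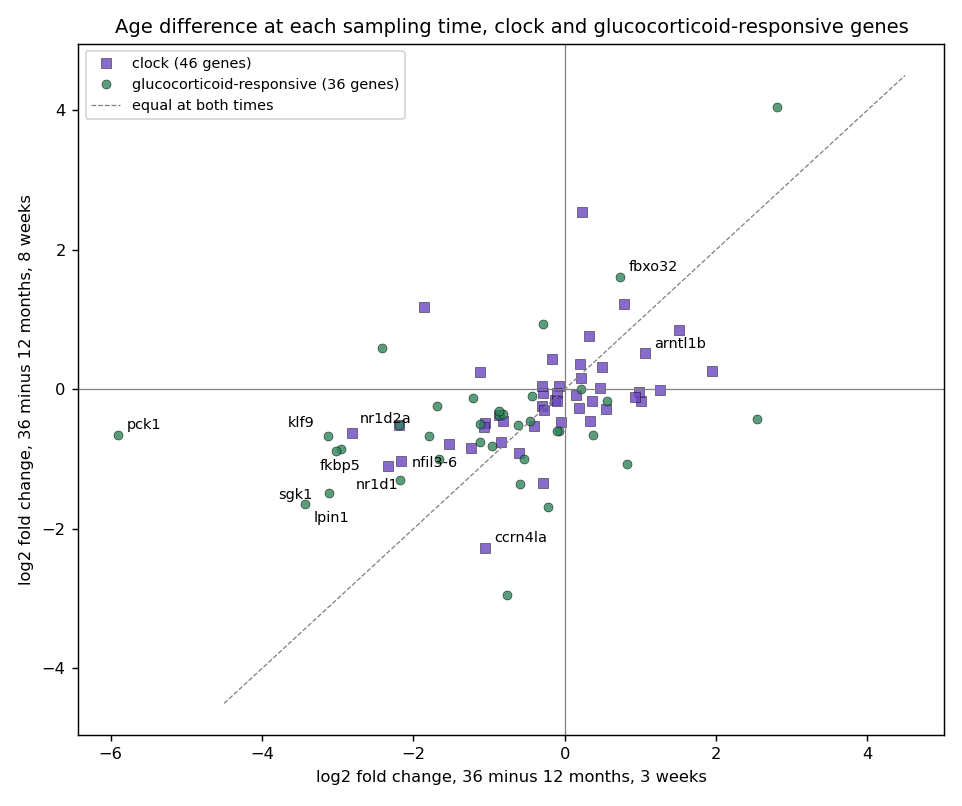
Log2 fold change, 36 minus 12 months, at 3 weeks (horizontal) and at 8 weeks (vertical) for the clock and the glucocorticoid-responsive genes; each point is 1 gene and the dashed line marks equal differences. Several genes lie far to the left but near 0 on the vertical axis, such as pck1 (-5.91 and -0.65) and klf9 (-3.13 and -0.68).

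Most ribosomal protein genes had small fold changes above 0. Of the 80 mitochondrial ribosome genes, 77 had a fold change above 0 and the median was 0.43, with 16 higher and 0 lower at an unadjusted p under 0.05 (31 and 0 without 36-month 8-week replicate 3). The large-subunit gene mrpl38 measured 19.1, 18.1, 18.2, 16.4 and 20.8 CPM in the young and 23.9, 38, 31.3, 32.4 and 32.3 CPM in the old fish (0.77 ± 0.17, adjusted p = 0.141), and mrpl39 also separated the ages in every fish (0.74 ± 0.17). The size of the shift varied by fish: the list's median in the old livers was 0.01, 1.12, 0.37, 0.44 and -0.05, highest in 36-month 3-week replicate 2. Of 82 cytosolic ribosome genes, 80 were above 0 with a median of 0.36, and 8 were higher and 1 lower at an unadjusted p under 0.05 (27 and 1 without that library). Of the 82, 12 were higher in every old liver, against 1.28% of all genes. The stalk protein gene rplp1 stood at 475, 657, 562, 488 and 696 CPM against 781, 1123, 1002, 1027 and 1090 CPM (0.80 ± 0.22, adjusted p = 0.195). The nuclear genes of respiratory complexes II to V had a median of 0.26 (46 of 51 above 0; 5 higher and 0 lower, and 14 and 0 without that library). Those of complex I, the target of rotenone in the treated fish of the study, had a median of 0.08, with 32 of 40 above 0 and 0 at an unadjusted p under 0.05. Without 36-month 8-week replicate 3 their median was 0.19, with 8 of 40 higher and 0 lower, against -0.01 and 8.63% for all genes. The 13 mitochondrially encoded transcripts went the other way, all 13 below 0 with a median of -0.42 and none at an unadjusted p under 0.05; mt-nd4 ranged from 1704 to 6099 CPM in the young and from 1440 to 3953 CPM in the old livers, which overlapped. Proteasome genes had a median of 0.19 (3 of 59 higher, 0 lower).

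Most genes of endoplasmic reticulum stress had fold changes above 0. Of 51 tested, 0 were called, 42 were above 0 with a median of 0.52, and 6 were higher and 2 lower at an unadjusted p under 0.05. Without 36-month 8-week replicate 3 these became 27 and 2, with a median of 0.65, against 8.63% of all genes higher and 9.7% lower in that fit; 1 of the 51 was called there. The stress sensor kinase gene ern1 (IRE1) measured 32.4, 33.8, 47.5, 50.5 and 46.9 CPM in the young and 18.2, 18.7, 14.2, 15.7 and 18.7 CPM in the old fish, without overlap (-1.28 ± 0.19, adjusted p = 0.0636, and 0.0338 without the library). The list also holds pdia2, a disulfide isomerase that in mammals belongs to the exocrine pancreas, which followed the pancreas markers with 29.3, 69.0, 4.81, 3.95 and 23.5 CPM in the old livers. Among 40 integrated stress response genes, 3 were higher and 5 lower at an unadjusted p under 0.05 (7 and 10 without the library). Of these chac1, which degrades glutathione, was lower (312, 577, 498, 496 and 713 against 104, 66.2, 322, 177 and 273 CPM; -1.64 ± 0.35, adjusted p = 0.140) and ATF5 (1 of 2), a transcription factor of the mitochondrial stress response, was higher (1.58 ± 0.35, adjusted p = 0.141). The mitochondrial chaperone genes hspd1 and hspe1 were highest in 36-month 3-week replicate 2, at 829 and 254 CPM, against at most 270 and 102 CPM in the other old livers. Their fold changes were 1.44 ± 0.59 and 1.06 ± 0.46, and their age groups overlapped. Of the 34 mitochondrial chaperone and protease genes, 2 were higher and 0 lower with a median of 0.27 (9 and 0, and 0.43, without 36-month 8-week replicate 3). Of 35 cytosolic heat shock genes 5 were higher and 2 lower at an unadjusted p under 0.05. Antioxidant and glutathione genes had a median of 0.13 (2 higher and 2 lower of 47, and 2 and 4 without that library).

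Several metabolic lists had medians below 0 in the old livers, by small amounts and with no gene called. For comparison, 6.12% of all genes were lower and 6.75% higher at an unadjusted p under 0.05. Without 36-month 8-week replicate 3 these shares were 9.7% and 8.63%, so larger counts without it are partly general. Of 70 genes of amino acid and one-carbon catabolism, 57 were below 0 (43.6% of all genes were), 9 were lower and 0 higher at an unadjusted p under 0.05, and the median was -0.36 (-0.16 without 36-month 8-week replicate 3, with 10 lower and 1 higher). The mitochondrial arginase gene arg2 stood at 399, 329, 112, 67.6 and 240 CPM in the young and at 20.02, 12, 30.6, 82.6 and 49.5 CPM in the old fish (-2.56 ± 0.72, adjusted p = 0.216), and the alanine aminotransferase gene gpt2 was lower by a fold change of -1.06 ± 0.24. In fatty acid and triglyceride synthesis, 9 of 55 were lower and 1 higher (13 and 0 without it), with a median of -0.22. The last enzyme of triglyceride synthesis, dgat2, had 1122, 791, 923, 751 and 892 CPM in the young and 300, 457, 601, 679 and 357 CPM in the old fish, without overlap (-0.92 ± 0.28, adjusted p = 0.238); it was named after its values were seen. In fatty acid oxidation 5 of 47 were lower and 0 higher, with a median of -0.26 (-0.11 without that library). They included copies of the nuclear receptor PPAR alpha, which drives that pathway: pparab (-1.14 ± 0.33) and PPARA (1 of 3) (-1.27 ± 0.37) were lower in every old liver. These copies were named for having the smallest p of the list, and values of any other copy are not given. Gluconeogenesis and glycogen genes had 6 of 32 lower and 0 higher (9 and 2 without it), among them the kinase gene SIK1 (-1.78 ± 0.45) and the transcription factor gene foxo3b (-1.25 ± 0.43). Glycolysis genes were balanced, with 17 of 33 above 0, a median of 0.01 (-0.08 without it), and 1 higher and 0 lower (1 and 3 of 29 without it). Lipoprotein genes had 1 higher and 5 lower of 34 (median -0.23, and -0.39 without it). Cholesterol synthesis had 0 of 31 genes at an unadjusted p under 0.05, with a median of -0.01 (0.36 without 36-month 8-week replicate 3). That liver had the lowest list median, -2.45 relative to the 12-month mean, against 0.27 and 0.18 in the other 8-week and 0.16 and 1.58 in the 3-week old livers. Xenobiotic metabolism was balanced, with 5 higher and 6 lower of 111 (8 and 8 of 109 without that library); cyp2p7 was lower in every old liver (-0.89 ± 0.21) and cyp2x10.2 measured 37.6, 11.6, 14.1, 11.7 and 12.2 CPM against 40.5, 55.6, 36.0, 30.4 and 56.4 CPM (1.4 ± 0.34, adjusted p = 0.157). Bile acid genes had 1 higher and 5 lower of 36 (0 and 6 without it), the canalicular pump gene abcc2 among them (-0.75 ± 0.24). Of 43 iron, heme and copper genes 1 was higher and 4 lower (3 and 6 without that library), with ncoa4 and TFR2 (2 of 2), a transferrin receptor copy (-1.07 ± 0.24), first among them.

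The lists of secreted liver proteins had medians near 0 or below it, with unlike values at the sampling times. Complement genes had a median of -0.40, with 37 of 42 below 0, but it was 0.10 at 3 weeks and -0.54 at 8 weeks, and -0.21 without 36-month 8-week replicate 3. The complement component gene c3b (c3a.2) measured 2891, 2961, 3553, 3220 and 3207 CPM in the young and 2624, 3027, 1656, 1336 and 608 CPM in the old fish (-0.91 ± 0.37, adjusted p = 0.347), so that the 3-week ages overlapped. Coagulation genes had a median of -0.20, and 0.05 without that library, and plasma protein genes -0.16 and 0.10. Of 54 plasma protein genes, 2 were higher and 2 lower at an unadjusted p under 0.05 (5 and 2 without it). The lecithin-cholesterol acyltransferase gene lcat, which matures lipoproteins, stood at 20.5, 20.8, 21.0, 36.0 and 38.2 CPM against 18.2, 10.04, 10.3, 8.30 and 10.1 CPM (-1.26 ± 0.30, adjusted p = 0.154). Among acute phase and innate effectors (median -0.54, 1 higher and 3 lower of 35, and -0.34, 4 and 5 without that library), pglyrp6, a peptidoglycan recognition protein gene, was higher in every old liver, with 0.359, 1.78, 3.00, 1.46 and 0.236 CPM against 139, 29.7, 9.09, 5.14 and 57.2 CPM (4.85 ± 1.1, adjusted p = 0.145). The old livers at 139, 29.7 and 57.2 CPM also had the largest exocrine pancreas shares, 2.19%, 1.83% and 1.17% of counts. The part of pancreas transcripts in the pglyrp6 values was not tested.

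The vitellogenin genes vtg4 and vtg5 stood above the young range in 3 of the 5 old male livers, while the estrogen receptor gene esr2b was lower in all. Of 21 estrogen-responsive and sex steroid genes, 6 were higher and 3 lower at an unadjusted p under 0.05, and all 6 were vitellogenins. The gene vtg4 measured 0.831, 1.39, 4.49, 0.960 and 5.31 CPM in the young and 16.3, 2.34, 68.1, 134 and 0.289 CPM in the old fish (3.78 ± 1.21, adjusted p = 0.258). Its level in 36-month 3-week replicate 2 lay within the young range, and that in 8-week replicate 3 below it. Without the latter its adjusted p was 0.0483. For vtg5 the values were 26.1, 37.0, 107, 19.9 and 145 CPM against 241, 64.1, 1033, 2259 and 6.35 CPM, with the same order among the old fish. Copies of vitellogenin genes are similar and their reads could have been shared. The receptor gene esr2b stood at 247, 220, 196, 204 and 178 CPM in the young and 48.1, 128, 109, 112 and 78.6 CPM in the old fish, without overlap (-1.13 ± 0.28, adjusted p = 0.169). The genes vtg4 and vtg5 were chosen after their values were seen.

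In growth hormone and insulin-like signalling, 9 of 54 genes were lower and 0 higher at an unadjusted p under 0.05, with a median of -0.21 (-0.14 without 36-month 8-week replicate 3). The shares over all genes were 6.12% lower and 6.75% higher (9.7% and 8.63% without that library). Of the 54, 4 were lower in every old liver, against 1.81% of all genes. The kinase copy GSK3B (2 of 2) (gsk3bb) measured 4.95, 9.40, 3.00, 3.79 and 2.51 CPM in the young and 0.275, 2.41, 0.691, 0.484 and 0.168 CPM in the old fish (-2.63 ± 0.58, adjusted p = 0.141). The growth hormone receptor gene ghra stood at 51.2, 45.5, 61.5, 64.5 and 58.0 CPM against 30.5, 34.3, 40.9, 27.5 and 12.9 CPM (-0.94 ± 0.29, adjusted p = 0.252), whereas ghrb had a fold change of -2.55 at 8 weeks and of 0.17 at 3 weeks. The hormone gene igf1 itself overlapped widely, with 30.7 to 173 CPM in the young and 6.64 to 76.8 CPM in the old fish (-0.80 ± 0.67, adjusted p = 0.619). The genes ghra, ghrb and igf1 were chosen after their values were seen. Sirtuin and mitochondrial biogenesis genes were balanced (5 higher, 5 lower of 42), as were lysosome and autophagy genes (2 higher, 1 lower of 81, and 4 and 4 without that library). Genes of p53, apoptosis and senescence had 4 higher and 8 lower of 55 (2 and 11 of 54 without it), led by the antiproliferative gene btg2 (-1.88 ± 0.43) and the survival gene mcl1b (-1.49 ± 0.35). DNA repair and telomere genes had 6 higher and 1 lower of 61 (4 and 3 of 60 without it). The immediate early genes had 1 higher and 6 lower of 47, and 2 higher and 16 lower of 46 without 36-month 8-week replicate 3, which moved their median from -0.32 to -0.79. The cell cycle median changed its sign in that step, from 0.44 to -0.37.

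**Figure D5:**
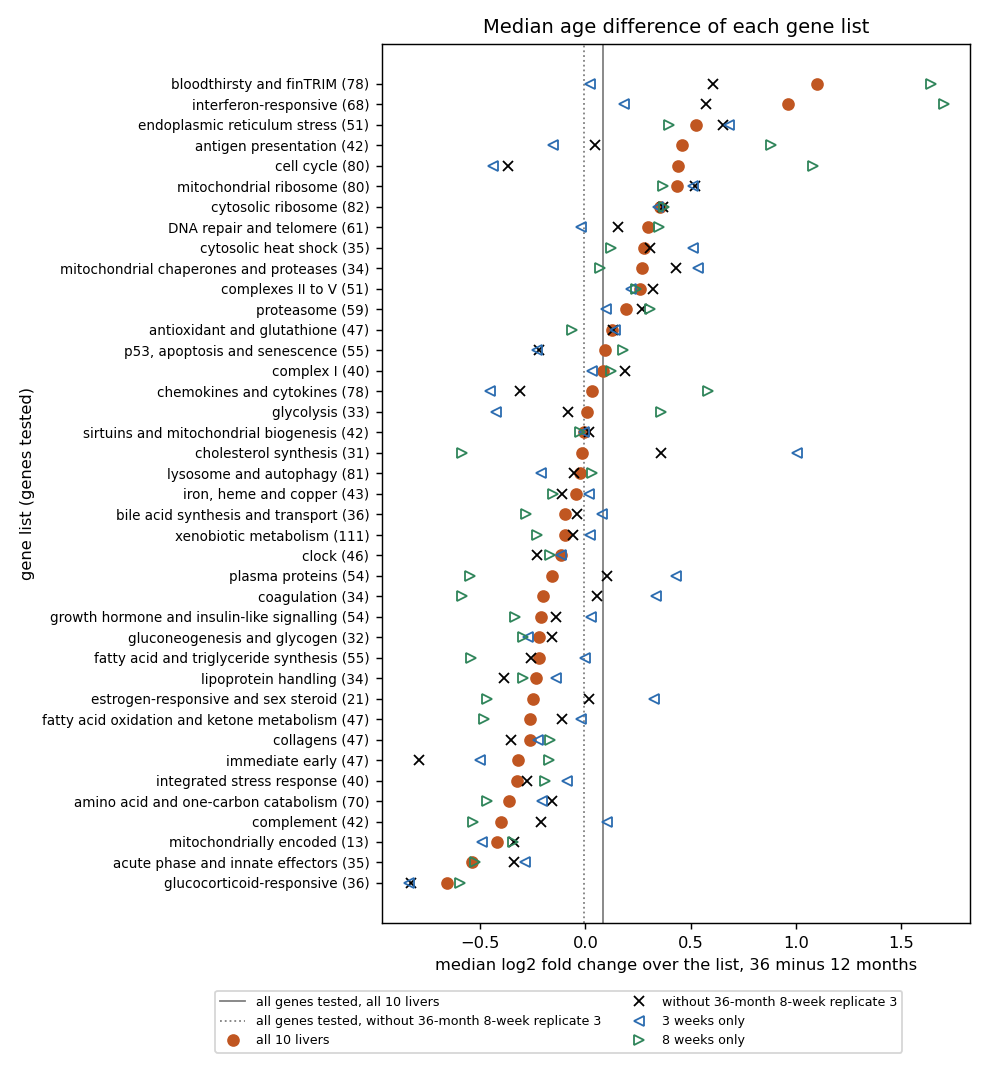
Median log2 fold change, 36 minus 12 months, over each gene list (number of genes tested in brackets), with all 10 livers (filled), without 36-month 8-week replicate 3 (cross) and at each sampling time (triangles); vertical lines mark the median of all genes. Interferon-responsive (0.96, 0.57 without) and bloodthirsty and finTRIM genes lie at the upper end and glucocorticoid-responsive genes (-0.66, -0.83 without) at the lower, and the cell cycle list lies on opposite sides of 0 (0.44 and -0.37).

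Among other cell types, neutrophil transcripts took a smaller share in most of the old livers. The 25 markers took 0.116% to 0.366% of counts in the young and 0.0267% to 0.130% in the old livers, with 0 to 2 of the 25 at 0 per library, and 3 of 24 were lower and 0 higher at an unadjusted p under 0.05 (median -0.81). Without 36-month 8-week replicate 3 the count was 9 of 23 lower with a median of -1.38, and with all livers the median was -2.09 at 3 weeks and -0.10 at 8 weeks. By library, the list's median relative to the 12-month mean was 0.94, -0.30, -0.41, 0.50 and -1.59 in the young livers. In the old livers it was -0.30, -1.08, -0.79, -1.30 and 0.12, so the ages overlapped and the lowest value was a young one. The peroxidase gene mpx, which defines neutrophils, measured 44.6, 97.3, 31.1, 38.9 and 0.413 CPM in the young and 11.6, 0.792, 0.904, 0.372 and 4.83 CPM in the old fish (-3.51 ± 1.16, adjusted p = 0.269). One young liver was thus as low as the old ones. The gelatinase gene mmp9 had a fold change of -3.05 ± 0.82 (adjusted p = 0.196) and overlapped as well. The T and NK cell list had 5 higher and 0 lower of 37 (median 0.77), and 1 and 2 with a median of -0.10 without 36-month 8-week replicate 3, in which its share was 0.0362% against at most 0.00966% in any other liver. The pancreas lists held 22 of 25 exocrine genes (median 3.04, and 2.81 without that library) and 6 of 13 endocrine genes (median 2.93) higher at an unadjusted p under 0.05, with 0 called. Without it these counts were 9 of 24 and 2 of 10, the endocrine median then being 3.61. The elastase gene ela2 stood at 4.59, 36.2, 34.7, 28.1 and 3.04 CPM in the young and 714, 537, 69.7, 49.7 and 208 CPM in the old fish (3.33 ± 0.95, adjusted p = 0.223). At the same threshold 6.75% of all genes were higher and 6.12% lower (8.63% and 9.7% without that library). Of the other lists, the stellate and fibroblast markers had 1 higher and 2 lower of 35 (1 and 6 without that library) and biliary markers 1 and 0 of 15 (0 and 3). Endothelial markers had 2 and 4 of 22 (2 and 3 of 21), B cell markers 1 and 5 of 34 (3 and 5 of 31), and collagens 5 and 6 of 47. Macrophage markers had 0 and 2 of 39, with a median of -0.23 (-0.69 without that library). Erythrocyte markers had 0 and 0 of 13, with a median of -0.39 (-0.18 without that library). Intestine markers had 4 higher and 1 lower of 35 (median 2.13, and -1.07 without that library). Testis and germ cell markers had 2 and 0 of 19 (7 and 0), skeletal muscle markers 1 and 1 of 9 (1 and 3 of 8), and adipocyte markers 0 and 1 of 7. Skin and gill epithelium markers had 0 and 3 of 21, with a median of -0.69 (-1.07 without that library).

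When 36-month 8-week replicate 3 was left out, 130 of the 138 called genes were also called by both DESeq2 and voom. In the fit of all 10 livers 135 of the 138 had the same sign, and 71 of them separated the ages in all 10 fish. Over all genes, 1.28% were higher and 1.81% lower in every old liver. The 138 had been called on livers that are part of the 10, so neither count is an independent check. The genes described in this paragraph were chosen from the fit without that library after their values were seen. The collagen-crosslinking enzyme gene loxl2a measured 3.63, 7.10, 9.52, 12 and 6.73 CPM in the young and 46.9, 44.8, 161, 164 and 3.2 CPM in the old fish, a rise of 3.65 ± 0.31 without the library (adjusted p = 0.00509) and a fold change of 3.35 ± 0.80 with it (adjusted p = 0.154). Its related copy LOXL2 (2 of 3) had 18.7, 16.7, 68.2, 68.7 and 3.42 CPM in the old livers against at most 12.5 CPM in the young, and their reads could have been shared. The teneurin gene ODZ2 (2 of 3), a cell adhesion receptor, went from at most 0.285 CPM in the young to 74.6, 12.0, 55.3, 26.7 and 0.433 CPM in the old fish. For dio3b, the deiodinase that inactivates thyroid hormone, the values were 1.27, 3.08, 4.27, 10.6 and 4.51 CPM against 40.4, 12, 47.8, 56.0 and 4.09 CPM (3.28 ± 0.47 without the library, adjusted p = 0.0281). In loxl2a and dio3b the excluded liver lay within or below the young range, and for dio3b 36-month 3-week replicate 2 was close to it as well.

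Lower in the same fit were aim1b (crybg1b), with 7.16, 10.1, 28.2, 15.5 and 24.3 CPM in the young and 0.489, 0.792, 0.585, 0.558 and 5.2 CPM in the old fish (-4.57 ± 0.41 without the library, adjusted p = 0.00509), and the semaphorin receptor gene plxnc1, with 51.6, 53.7, 36.7, 83.4 and 27 CPM against 12, 4.21, 3.93, 3.28 and 16.6 CPM (-3.26 ± 0.49, adjusted p = 0.0328). Both separated the ages in all 10 livers. A further set was present in only some of the old fish. PARP6 (1 of 2), a mono-ADP-ribosyltransferase copy, stood at 1.33 to 2.21 CPM in the young and at 69.0, 1.87, 86.5, 101 and 1.52 CPM in the old livers. TP53I3 was at most 0.0295 CPM in the young and 7.09, 0.0317, 9.25, 9.83 and 0 CPM in the old. A2LD1 (2 of 3) was likewise at 10.5, 0, 8.37, 9.19 and 0.144 CPM and the glutamate receptor subunit gene gria4a at 2.17, 0.127, 4.44, 3.98 and 0.0962 CPM, each at most 0.168 CPM in any young liver. All 4 were thus high in the same 3 old fish, 3-week replicate 1 and 8-week replicates 1 and 2, and at the young level in the other two. These genes were also chosen after their values were seen.

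At each sampling time alone, with 2 against 2 and 3 against 3 fish, edgeR called 0 genes at an adjusted p under 0.05. At 3 weeks 1763 genes (9.22%) and at 8 weeks 1910 (9.99%) had an unadjusted p under 0.05; DESeq2 called 426 and 498, and voom 0 and 531. The genes with the smallest p at 3 weeks were pck1, ERRFI1 (2 of 2), nr1d2a, ARRDC3 and rims1a. Of these, the arrestin-related gene ARRDC3 was higher in old fish, with 17.8, 23.8, 56.4, 87.1 and 76.2 CPM against 201, 115, 127, 147 and 128 CPM (2.92 at 3 weeks and 0.87 at 8 weeks), and ERRFI1 (2 of 2), an EGF receptor inhibitor copy, was lower (38.8, 25, 35.9, 34.9 and 24.8 against 1.8, 2.6, 24.4, 12.8 and 15.3 CPM). At 8 weeks the leading genes by p were CU459152.1, guca1e, ern1, tlr5b and the potassium channel gene kcnk9, with 0.491, 2.07, 4.27, 3.02 and 2.92 CPM against 0.153, 0.190, 0.0797, 0.0372 and 0 CPM.

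The age difference itself did not pass the test of a difference between 8 and 3 weeks for any gene. edgeR called 0, with 1047 (5.48%) at an unadjusted p under 0.05; 47 genes passed in DESeq2 and 0 in voom. First by p came pck1, with a difference between times of 5.26 ± 0.76, si:ch211-151o1.2, zgc:153845, mxd1 and gnl1 (adjusted p = 0.800). For the nucleolar GTPase gene gnl1 the pattern came from the young fish, at 4.31, 4.47, 18.9, 15.9 and 18.5 CPM, while the old stayed between 10.5 and 14.5 CPM. The MYC antagonist gene mxd1 was likewise at 5.74 and 8.23 CPM in the young fish at 3 weeks and at 1.48 to 2.02 CPM at 8 weeks.

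Most of the 8 called genes showed an age difference in liver that was tested to be larger than in brain or skin of the same study (13 control libraries each). The liver and brain differences tested as unequal for 565 of 25220 genes (2.24%), 184 more positive (0.73%) and 381 more negative (1.51%) in liver. For liver and skin they did for 482 (1.91%), 208 (0.825%) and 274 (1.09%). With RLE in place of TMM scaling these splits were 226 and 277, and 269 and 219. This fit shared each gene's spread across brain, liver and skin, so the spread between livers may be understated. For example, slc10a2 stood at 87.1 CPM in 1 young liver and at most at 0.875 CPM in every other liver. Its adjusted p was 0.254 for age in liver and 0.012 against brain. The fit also treated all libraries as independent, although fish numbers recur across tissues in the labels. Of the 8, 7 passed against brain and 5 against skin. The 8 had been chosen by their age difference in these same livers, which favours passing. These counts are therefore no independent evidence of a difference between tissues. For si:dkey-20j10.2 the age difference in brain was 0.16 ± 0.24 and in skin -0.45 ± 0.24, and liver differed from them by -2.95 ± 0.36 (adjusted p = 2.51e-05) and -2.35 ± 0.36 (adjusted p = 0.000821). For snrk1, at -0.10 ± 0.34 in brain and -0.12 ± 0.34 in skin, the differences were -2.83 ± 0.54 (adjusted p = 0.00387) and -2.81 ± 0.54 (adjusted p = 0.00508). CU459152.1 differed by -5.59 ± 1.07 from brain (adjusted p = 0.00396) and by -6.01 ± 1.01 from skin (adjusted p = 0.00187). By contrast msrab also fell with age in brain (-1.78 ± 0.32, adjusted p = 0.00193) and in skin (-3.22 ± 0.34, adjusted p = 1.55e-06), more in liver than in brain (-2.35 ± 0.51, adjusted p = 0.0122) and without a detected difference from skin (-0.91 ± 0.52, adjusted p = 0.407). zgc:158417 fell in skin as well (-3.90 ± 0.73, adjusted p = 0.00538). The sensor gene ern1 was lower in brain (-1.47 ± 0.21, adjusted p = 0.000166) and skin (-1.0 ± 0.21, adjusted p = 0.0114), and liver differed from neither (adjusted p = 0.912 and 0.640). The interferon-responsive genes had a median of 1.64 in brain and 0.38 in skin beside 0.96 in liver, and isg15 rose in brain (4.04 ± 0.71, adjusted p = 0.00180) with no detected difference between liver and brain (-1.85 ± 0.94, adjusted p = 0.335).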

How the data were processed

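Total RNA was isolated from liver with QIAzol and sequenced from TruSeq RNA libraries, per the labels' protocols. The authors' deposited counts are whole numbers for each gene in each library, not normalized, and these were used for every test. The authors also deposited RPKM values, which served only to recover gene lengths (30932 genes, median 1616 bp). The submitters' processing notes name CASAVA 1.8.2. The aligner, the counter, its strand setting and the build were not given in the sources used here. Reads of overlapping, antisense and near-identical genes, whose symbols end in a bracket such as (1 of 2), may therefore be misassigned. No genome was used, and no coordinates or sequences are given.

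Groups follow the labels' tissue, age, rotenone treatment and sampling time. No pair of replicates was a copy of the other (chi-square per gene of 40.12 to 964.7). The filterByExpr function (minimum count 10, total 15) retained 19113 of 32677 genes. They were fitted in edgeR 4.0.16 under R 4.3.3 with TMM scaling, sampling time and age, and tested two-sided by the robust quasi-likelihood F test. Calls are at a Benjamini-Hochberg adjusted p under 0.05. Standard errors were taken as the size of the log2 fold change over the root of F. Each time and the difference between times used a model of the 4 groups. Differences between tissues came from a model of the 36 control libraries, whose 25220 genes include those of brain and skin. In both models, each gene's spread was shared by all groups. Fish numbers in the labels recur across brain, liver and skin, so tissues of the same fish may not be independent. The model of the 36 libraries did not account for this. Counts from a fit with the fish number as a block are given in the closing section. The common biological coefficient of variation was 0.585. The scripts were tested on simulated data.

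Genes were named by a rule: the called genes, the 20 smallest p with a mean of at least 1 CPM and an informative symbol, the 2 smallest p of each list, and the 5 smallest p of each further contrast. Other genes are stated as chosen after their values were seen. Not every gene named by this rule is reported here. The gene lists, 56 in all, and the comparison were chosen with earlier results of these data known, and no list was tested as a set. Counting intervals are exact at 95% and cover counting error only. Alternatives used DESeq2 1.42.0, limma 3.58.1 (voom), RLE scaling, no filter, removal of a length trend, no time term, other sets of livers, replicate blocks and each library left out.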

Additional observations from a re-analysis of the deposited data

Results flagged for a closer look

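In 82 sets of 5 livers of one age (the called genes, the 20 genes with the smallest p and the cell type shares), 20 had a highest or lowest liver whose gap to the next was more than 0.71 of the range, on the printed scale (10 on a log2 scale). For independent, normally distributed values about 1 in 20 sets would be flagged. That rate need not hold for these values, on genes picked by p and on shares of the same libraries. Of the 20 flagged sets, 6 concern the marker shares of 36-month 8-week replicate 3 named next and 2 its gene levels. It was lowest for hepatocyte markers (12.8% of counts) and highest for intestine (4.80%), T and NK cell (0.0362%), skin and gill epithelium (0.371%), adipocyte (0.0271%) and skeletal muscle markers (0.00498%). It was also the highest old liver for CU459152.1 (0.313 CPM) and si:dkey-20j10.2 (0.553 CPM). The age difference of both genes was larger without it.

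Other libraries stood apart in single values. The 12-month 3-week replicate 1 was highest for macrophage (0.278%) and neutrophil markers (0.366%), 12-month 8-week replicate 1 for testis and germ cell (0.00293%) and skin and gill epithelium markers (0.142%), and 36-month 3-week replicate 1 for endocrine pancreas markers (0.114%). Among genes, 12-month 3-week replicate 2 was highest for rims1a (16.3 CPM), zfpm1 (18.1 CPM) and KAZN (3 of 3) (1.59 CPM), and 12-month 8-week replicate 3 for ddx43 (22.2 CPM). In the old fish, 8-week replicate 2 was highest for mfsd2ab (203 CPM), 8-week replicate 1 for spock2 (1.25 CPM) and 3-week replicate 1 for zgc:158417 (0.0306 CPM, a single count).

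The age difference in liver was unlike that in another tissue, by a contrast across all genes, for the following called genes. They had been called on the same liver values, which favours such a difference. Against brain the log2 differences were -5.59 for CU459152.1, -1.91 for guca1e, -2.35 for msrab, -3.46 for pth2, -2.21 for rims1a, -2.95 for si:dkey-20j10.2 and -2.83 for snrk1. Against skin they were -6.01 for CU459152.1, -2.68 for guca1e, -1.94 for rims1a, -2.35 for si:dkey-20j10.2 and -2.81 for snrk1.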

How the results depend on the processing

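The 8 calls for age (0 higher) became 8 with RLE scaling, 7 without a filter and 7 with a length trend removed. They became 4 without the time term, 806 with DESeq2, 755 with voom and quality weights and 187 with all 20 livers. Chosen after seeing the data, a fit of all livers, rotenone-treated fish included, but without 36-month 8-week replicate 3 gave 313, DESeq2 without that library 1255 and voom without it 808. With the replicate block the count was 0 (1706 at an unadjusted p under 0.05). Deviations of same-numbered livers from their group means had correlations of -0.419 to 0.00744 across ages. With 2 or 3 fish per group these correlations are tied to each other, so they cannot decide whether the numbers pair fish. The labels count replicates within each tissue, and a fish number at replicate 2 in liver can stand at replicate 3 in brain. The replicate block therefore follows no pairing of fish across ages that the labels give. At 3 weeks the count of 0 became 426 with DESeq2, 5 with all livers and 94 with all but that library. At 8 weeks 0 became 498 with DESeq2, 531 with voom, 19 with all livers and 22 with all but that library. The difference between times went from 0 to 47 with DESeq2. Against brain 565 became 1112 with voom, and with the fish as a replicate block 394 (skin 331). The cause of these differences was not tested.

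Leaving out 1 library gave 0 to 138 calls for age, 0 to 21 at 3 weeks, 0 to 10 at 8 weeks, 0 to 2 for their difference, 430 to 1122 against brain and 400 to 858 against skin. For age the count was 138 without 36-month 8-week replicate 3, 22 without 36-month 3-week replicate 2, 4 without 12-month 3-week replicate 1, 1 without 36-month 3-week replicate 1, and 0 without any of the other 6 (those of 12-month 3-week replicate 2, all 12-month 8-week and 36-month 8-week replicates 1 and 2). Over the 178 results for named genes, each a gene in a given contrast, no value reversed. Leaving out a library, 1653 kept their side of the threshold, 43 passed it and 69 lost it; under the other alternatives the numbers were 1396, 399 and 21. List medians moved by more than their spread in 11 cases (549 did not) and 27 cases (589 did not). Depth limited zgc:158417, pth2 and MREG, whose low group held 1, 5 and 8 counts.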
